A study of Mus musculus with 6 samples.

Results

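The genes described here are the neurotrophin genes *Bdnf* and *Ntf3*, the insulin-like growth factor gene *Igf1*, and the receptor genes *Ntrk2*, *Ntrk3*, *Ngfr* and *Igf1r*. They are 7 of the 24453 gene rows of the deposited table, found by their symbol, and each has 1 row. The tissue was visual cortex, taken from C57BL/6J males at an age of 14 days, and its messenger RNA was sequenced. The groups were *Chrdl1* knockout (KO, 3 libraries) and wild type (WT, 3 libraries), with no other allele or treatment named in the labels. *Chrdl1* encodes a secreted antagonist of bone morphogenetic proteins. Mice of both groups had been perfused with paraformaldehyde. How the KO allele was made is not described in the labels, nor whether a library stands for 1 animal, and a p-value therefore reflects library-to-library spread, which may be technical. Library titles begin with the genotype and a code, and each code occurs once per genotype, which gives the pairs KO1011 and WT1011, KO1012 and WT1012, and KO1013 and WT1013.

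Neurotrophins are secreted as precursors, cleaved to mature dimers and read by Trk receptor tyrosine kinases. BDNF, encoded by *Bdnf*, binds TrkB, encoded by *Ntrk2*, and neurotrophin-3, encoded by *Ntf3*, binds mainly TrkC, encoded by *Ntrk3*. All neurotrophins also bind the p75 receptor, encoded by *Ngfr*, which has no kinase. IGF1 binds its own receptor tyrosine kinase, encoded by *Igf1r*. In the visual cortex, BDNF and IGF1 are known for roles in the maturation of inhibition and in experience-dependent plasticity.

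Estimated depth was 22.7 to 31.9 megareads in KO and 27.5 to 38.2 megareads in WT. *Chrdl1* measured 0.190, 0.120 and 0.172 FPKM in KO1011, KO1012 and KO1013, against 3.57, 3.09 and 3.65 FPKM in WT1011, WT1012 and WT1013, which goes with the labels. FPKM divides a gene's fragments by its exon length and by library depth, so it gives relative levels, and in bulk tissue fewer cells of a type and less RNA per cell cannot be told apart. All 8 markers of cortical excitatory neurons were detected in every library, with summed levels of 706 to 830 FPKM in KO and 717 to 814 FPKM in WT. Libraries were not alike in markers of neighbouring tissue. KO1012 and KO1013 had summed levels of 10 striatal markers of 145 and 144 FPKM, against 311 FPKM in KO1011 and 271 to 318 FPKM in WT.

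Each row names 1 transcript and its exon length, and what follows on coverage holds if reads were counted over the exons of that transcript. The *Bdnf* row names NM_001285420, on the plus strand of chromosome 2 in mm10, from 109693027 to 109727043, with 3739 bp of exon. RefSeq lists 7 start sites for *Bdnf*, each with its own window of 250 bases before and 50 after the start (GRCm38.p6). The model in the row begins at 1 of them, and the value cannot be split by start site. Matching windows were found for 6 of the 7 genes, 13 windows in all. The pair of *Bdnf* windows printed here shows the start of the counted model and the neighbouring start that lies 591 bases upstream of it. That upstream start lies at an activity-regulated promoter of the gene. Capitals mark a half-site of the cAMP response element, TGACG on either strand, the motif bound by the transcription factor CREB.
Bdnf, start of the counted model, chr2:109692777-109693076, plus strand: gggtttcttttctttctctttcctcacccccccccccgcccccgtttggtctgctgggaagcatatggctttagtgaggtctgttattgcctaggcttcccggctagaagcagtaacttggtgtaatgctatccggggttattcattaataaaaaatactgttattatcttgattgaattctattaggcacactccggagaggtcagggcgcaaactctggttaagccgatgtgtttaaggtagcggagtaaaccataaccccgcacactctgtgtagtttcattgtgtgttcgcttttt
Bdnf, start upstream of it, chr2:109692186-109692485, plus strand: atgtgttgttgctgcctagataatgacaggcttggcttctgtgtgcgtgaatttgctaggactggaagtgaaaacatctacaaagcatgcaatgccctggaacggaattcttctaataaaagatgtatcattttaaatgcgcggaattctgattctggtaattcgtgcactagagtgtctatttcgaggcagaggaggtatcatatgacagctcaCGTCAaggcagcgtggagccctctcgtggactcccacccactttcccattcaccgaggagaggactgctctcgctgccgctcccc
The half-site was present in 1 of the 7 *Bdnf* windows and in no window of *Ntf3*, *Igf1*, *Ntrk2*, *Ngfr* or *Igf1r*. It begins 35 bases before the start and is not part of a full TGACGTCA element. Of 32851 RefSeq windows of the same length, 20.8% held the half-site and 1.79% the full element, and a match describes letters only. For *Ntf3*, on the minus strand of chromosome 6 from 126101412 to 126164960, the row names NM_001164035 with 1339 bp of exon. Its promoter window is shown because *Ntf3* had the largest fold change of the 3 ligand genes.
Ntf3, start of the counted model, chr6:126164911-126165210, minus strand: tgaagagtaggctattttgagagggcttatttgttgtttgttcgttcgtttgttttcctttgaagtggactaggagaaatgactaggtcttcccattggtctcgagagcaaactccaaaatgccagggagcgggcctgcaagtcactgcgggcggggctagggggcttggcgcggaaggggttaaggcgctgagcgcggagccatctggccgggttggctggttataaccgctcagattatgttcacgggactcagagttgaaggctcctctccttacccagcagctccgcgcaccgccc
It holds neither the half-site nor the full element.

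The Trk receptor rows cover different parts of their proteins. The *Ntrk2* row names NM_001282961, on the plus strand of chromosome 13 from 58806569 to 59133970, with 8691 bp of exon. The GENCODE M21 transcript paired with that identifier has 18 exons and 821 codons, the form with the kinase domain. A shorter form of 476 codons, known as the kinase-lacking TrkB made by astrocytes, has 1393 of its 1428 coding bases inside those exons. The last exon of the shorter form, 125.454 to 130.458 kb from the start of the counted model, is not among those exons. Nearly all of that exon is noncoding. Reads of both forms therefore enter the *Ntrk2* value, those of the shorter form only in part. The *Ntrk3* row names NM_182809, on the minus strand of chromosome 7 from 78300691 to 78577838, with 3816 bp of exon. Its paired GENCODE transcript has 14 exons and 612 codons and is a form that lacks the kinase. The TrkC form of 825 codons has 1585 of its 2475 coding bases inside the counted exons and 890 outside them. The *Ntrk3* value thus covers exons shared by both forms and the exons of the short form, and, counted this way, leaves out the kinase exons.

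**Figure D1:**
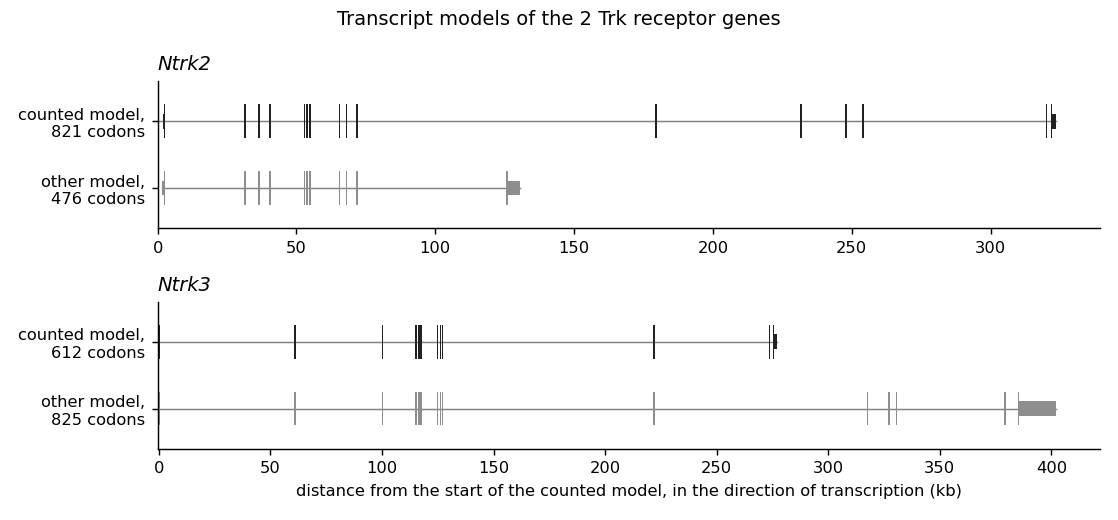
Exons (thin boxes) and coding parts (tall boxes) of the counted model (black) and 1 other GENCODE M21 model (grey) of *Ntrk2* (top) and *Ntrk3* (bottom), against distance from the start of the counted model in kb. Parts under 0.6 kb are drawn 0.6 kb wide. The counted *Ntrk2* model has 821 codons against 476 in the other, and the counted *Ntrk3* model 612 codons against 825.

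The other rows name NM_001111276 for *Igf1* (chromosome 10, plus strand, 87861111 to 87937047, 6981 bp of exon), NM_033217 for *Ngfr* (chromosome 11, minus strand, 95568821 to 95587698, 3398 bp) and NM_010513 for *Igf1r* (chromosome 7, plus strand, 67952257 to 68233667, 11955 bp). The noncoding antisense gene *Igf1os* spans 780 bp of the exons of the paired *Igf1* transcript, and the antisense gene *4930415C11Rik* spans 235 bp of those of *Ntrk2*. The libraries were made with a stranded kit, but no strand option is recorded for the counting, so reads of these antisense genes cannot be told apart from those of *Igf1* and *Ntrk2*.

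Per length, the receptor genes *Ntrk2* and *Ntrk3* were the most abundant and *Ngfr* the least. Mean levels over the 6 libraries were 46.3 FPKM for *Ntrk2*, 15.5 for *Ntrk3*, 8.78 for *Bdnf*, 3.77 for *Igf1r*, 3.06 for *Igf1*, 1.88 for *Ntf3* and 0.858 for *Ngfr*. The level of *Ntrk2* was exceeded by 5.91% of all rows, that of *Bdnf* by 27.4% and that of *Ngfr* by 53.7%. Each gene lay above the next in this order in 6 of 6 libraries, with the exception of *Igf1r* over *Igf1*. That pair overlapped, with *Igf1r* above *Igf1* in 3 of 3 KO libraries and 2 of 3 WT libraries, at ratios of 0.973 to 1.601. The FPKM of *Ntrk2* was 2.68 to 3.23 times that of *Ntrk3*, and that of *Ntrk3* 1.42 to 2.15 times that of *Bdnf*. The rows cover unlike parts of their genes, so these are not ratios of transcript numbers. Estimated reads per library ranged from 51 to 117 for *Ngfr* and from 46 to 103 for *Ntf3*, and from 10096 to 15039 for *Ntrk2*, so counting error weighs most on *Ngfr* and *Ntf3*.

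**Figure D2:**
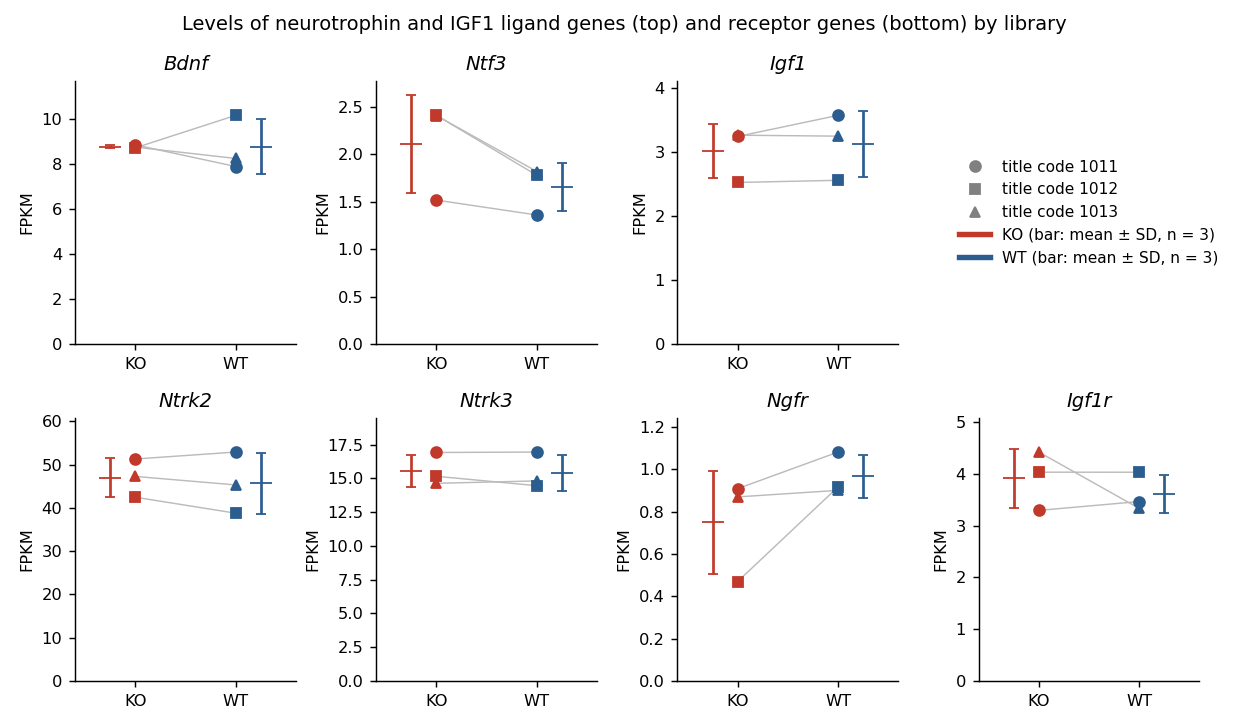
FPKM of each gene in the 3 KO (red, left) and 3 WT (blue, right) libraries, with ligand genes on top and receptor genes below. Symbols give the title code, grey lines join libraries of the same code, and bars show the mean ± SD (n = 3). KO and WT values overlap for all 7 genes.

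None of the 7 genes passed the test between KO and WT. Limma called 0 of the 6 genes that passed the filter of a mean of 1 FPKM, where 0.00777% of the 12863 genes tested were called, a single gene, *Chrdl1*. *Ngfr* did not pass the filter and is given from the fit without one, in which 0.0303% of 19781 genes were called and *Ngfr* was not. At an unadjusted p under 0.05 limma called 0 of the 6, where 0.63% of all tested genes were called, and 0 of the 7 without a filter, where 1.74% were. Voom on recovered reads called 0 after adjustment, where 0.00777% of genes were called. KO and WT values overlapped for each of the 7 genes, and 2.95% of tested genes did not overlap. An exact 2-sided permutation test over 3 against 3 libraries cannot go below p = 0.1, and it gave 0.2 at the lowest, for *Ngfr*. Each log2 fold change was computed on log2(FPKM + 1) as KO minus WT, a scale that compresses the change of low genes.

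Among the ligand genes, *Bdnf* stood at the same mean in both genotypes. It measured 8.86, 8.73 and 8.76 FPKM in KO1011, KO1012 and KO1013, against 7.90, 10.2 and 8.25 FPKM in WT1011, WT1012 and WT1013. The KO libraries lay close together between the WT extremes, at 8.78 ± 0.0672 FPKM in KO and 8.77 ± 1.22 FPKM in WT (SD, n = 3 each). Its log2 fold change of 0.01 (SE 0.10) had a 95% interval of -0.22 to 0.23 (limma adjusted p = 0.9999). WT1012, the highest library for *Bdnf*, was also the highest for the summed level of 23 activity-induced genes, at 855 FPKM. That sum was 640, 751 and 596 FPKM in KO1011, KO1012 and KO1013, and 649 and 532 FPKM in WT1011 and WT1013. KO1012 was the highest KO library for the sum. The KO values of *Bdnf* were too close to rank. Their 95% Poisson intervals overlapped, at 8.23 to 9.51, 8.21 to 9.27 and 8.18 to 9.36 FPKM in KO1011, KO1012 and KO1013. The part of activity in the level of *Bdnf* was not tested.

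*Ntf3* was the ligand gene with the largest difference, and it did not pass. It measured 1.52, 2.41 and 2.41 FPKM in KO1011, KO1012 and KO1013, against 1.36, 1.78 and 1.82 FPKM in WT1011, WT1012 and WT1013. KO was the higher library in 3 of 3 pairs, a direction that 12.3% of tested genes showed, but KO1011 lay below 2 WT libraries. Means were 2.11 ± 0.514 FPKM in KO and 1.65 ± 0.254 FPKM in WT (SD, n = 3 each), a ratio of 1.28. Its log2 fold change of 0.22 (SE 0.14) had a 95% interval of -0.11 to 0.55 (limma adjusted p = 0.9999). With the title code as a replicate block the interval was 0.05 to 0.39 and the limma unadjusted p was 0.0189, in a fit where 3.91% of tested genes had an unadjusted p under 0.05, and the adjusted p was 0.999. Without KO1011 the log2 fold change was 0.37 (limma adjusted p = 0.9999), and without WT1011 it was 0.14 (0.9997), both moves of over 1.5 times. Without KO1012 and without KO1013 it was 0.15 each. The 95% interval without KO1011 was 0.10 to 0.64 (limma unadjusted p = 0.0150). In that fit 207 of 12863 genes had an unadjusted p under 0.05. With voom on recovered reads and the replicate block the interval was 0.04 to 0.67 (limma adjusted p = 0.999).

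Counts for *Ntf3* were low, with 46, 103 and 85 reads in KO1011, KO1012 and KO1013 and 50, 81 and 93 reads in WT1011, WT1012 and WT1013. The 95% Poisson interval for KO1012, 1.97 to 2.92 FPKM, overlapped that of WT1012, 1.41 to 2.21 FPKM. Markers of other tissue also differed between libraries. The summed level of 7 hippocampal markers was 57.7, 71.5 and 59.9 FPKM in KO1011, KO1012 and KO1013, against 52.3, 66.3 and 56.2 FPKM in WT1011, WT1012 and WT1013. *Tshz2*, a retrosplenial cortex gene singled out after its values were known, measured 19.7, 16.6 and 18.2 FPKM in KO and 13.3, 9.95 and 13.6 FPKM in WT, in the same order. *Wfs1* alone made up 60.7% to 73.4% of the hippocampal sum, and single hippocampal markers were higher in KO in 7 of 7 cases in the KO1011 pair, 6 of 7 in the KO1012 pair and 2 of 7 in the KO1013 pair. The summed level of 8 meningeal markers was 56.6 to 69.6 FPKM in KO and 49.4 to 54.7 FPKM in WT, with 3, 8 and 7 of the 8 higher in KO within the pairs of KO1011, KO1012 and KO1013. The part of these tissues in the *Ntf3* values was not tested.

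*Igf1*, which in this tissue is made by interneurons and microglia among other cells, did not pass between genotypes, and its values lay close within pairs. It measured 3.24, 2.52 and 3.26 FPKM in KO1011, KO1012 and KO1013, against 3.57, 2.56 and 3.24 FPKM in WT1011, WT1012 and WT1013. KO1012 and WT1012 were the lowest libraries of their genotypes. Means were 3.01 ± 0.420 FPKM in KO and 3.12 ± 0.517 FPKM in WT (SD, n = 3 each), with a log2 fold change of -0.04 (SE 0.12, 95% interval -0.33 to 0.25, limma adjusted p = 0.9999). Summed levels of 12 microglial markers were 266, 283 and 253 FPKM in KO1011, KO1012 and KO1013. In WT1011, WT1012 and WT1013 they were 264, 292 and 266 FPKM. Those of 8 interneuron markers were 712, 762 and 670 FPKM in KO and 691, 834 and 680 FPKM in WT, in the same order. The part of either cell type in the *Igf1* values was not tested.

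Among the receptor genes, *Ntrk2* did not pass between genotypes. It measured 51.3, 42.5 and 47.3 FPKM in KO1011, KO1012 and KO1013, against 52.9, 38.8 and 45.3 FPKM in WT1011, WT1012 and WT1013. The order was the same in both genotypes, with the KO1011 and WT1011 pair highest and the KO1012 and WT1012 pair lowest. Means were 47.0 ± 4.42 FPKM in KO and 45.6 ± 7.07 FPKM in WT (SD, n = 3 each), with a log2 fold change of 0.05 (SE 0.12, 95% interval -0.24 to 0.33, limma adjusted p = 0.9999). With the replicate block the interval narrowed to -0.06 to 0.16. Astrocytes are a main site of *Ntrk2*, and the summed level of 8 astrocyte markers was 895, 895 and 783 FPKM in KO1011, KO1012 and KO1013, against 819, 856 and 817 FPKM in WT1011, WT1012 and WT1013. The part of astrocytes in the *Ntrk2* values was not tested.

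*Ntrk3* was the steadiest of the 7 genes, with the highest library 1.17 times the lowest. It measured 16.9, 15.1 and 14.6 FPKM in KO1011, KO1012 and KO1013, against 16.9, 14.5 and 14.8 FPKM in WT1011, WT1012 and WT1013. Means were 15.6 ± 1.20 FPKM in KO and 15.4 ± 1.35 FPKM in WT (SD, n = 3 each). Its log2 fold change of 0.01 (SE 0.09) had a 95% interval of -0.19 to 0.22 (limma adjusted p = 0.9999). These values concern the model named in the row, which lacks the kinase exons of TrkC.

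*Igf1r* measured 3.298, 4.04 and 4.43 FPKM in KO1011, KO1012 and KO1013, against 3.47, 4.04 and 3.34 FPKM in WT1011, WT1012 and WT1013. KO1013 was higher than WT1013 by 0.32 on the log2 scale, while the pairs of KO1011 and KO1012 gave -0.06 and 0.00. Means were 3.92 ± 0.573 FPKM in KO and 3.61 ± 0.371 FPKM in WT (SD, n = 3 each). For KO minus WT the log2 fold change of 0.09 (SE 0.11) had a 95% interval of -0.17 to 0.35 (limma adjusted p = 0.9999). Without KO1013 it was 0.02 and without KO1011 it was 0.18, and the gene passed in neither fit.

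*Ngfr* was the lowest of the 7 genes and had the widest range. It measured 0.909, 0.470 and 0.870 FPKM in KO1011, KO1012 and KO1013, against 1.08, 0.917 and 0.901 FPKM in WT1011, WT1012 and WT1013. KO1012 stood alone, with 51 reads and a 95% Poisson interval of 0.350 to 0.618 FPKM, and the other 5 libraries lay between 0.870 and 1.08 FPKM. KO was lower in 3 of 3 pairs, a direction shown by 9.59% of the 12863 genes that passed the filter, a set without *Ngfr*. In the KO1013 pair the 95% Poisson intervals overlapped, at 0.688 to 1.09 FPKM in KO1013 and 0.745 to 1.08 FPKM in WT1013. Means were 0.7497 ± 0.243 FPKM in KO and 0.967 ± 0.1002 FPKM in WT (SD, n = 3 each), with a log2 fold change of -0.18 (SE 0.11, 95% interval -0.44 to 0.09, limma adjusted p = 0.99997 in the fit without a filter). Without KO1012 the log2 fold change was -0.06, so the size of the difference rests on that library. The scale moved it too, to -0.37 with a pseudocount of 0.1 and -0.45 with voom on recovered reads. With voom and the replicate block it was -0.40, with a 95% interval of -0.78 to -0.01 and a limma adjusted p of 0.990.

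*Ngfr* is also a gene of the cholinergic neurons of the basal forebrain. The summed level of 6 markers of those neurons was 2.89, 0.830 and 0.920 FPKM in KO1011, KO1012 and KO1013, against 2.98, 2.97 and 2.99 FPKM in WT1011, WT1012 and WT1013. KO1012 and KO1013 were low for this sum, and both were low for the 10 striatal markers too. None of the cholinergic markers reached the filter of a mean of 1 FPKM. *Lhx8* had an estimated 14, 0 and 1 reads in KO1011, KO1012 and KO1013, against 11 to 32 reads in WT. *Gbx1*, at 0 in KO1013, had at most 3 reads in any library, too few to compare. *Ngfr* was low in KO1012 but not in KO1013. The part of neighbouring tissue in the *Ngfr* values was not tested.

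**Figure D3:**
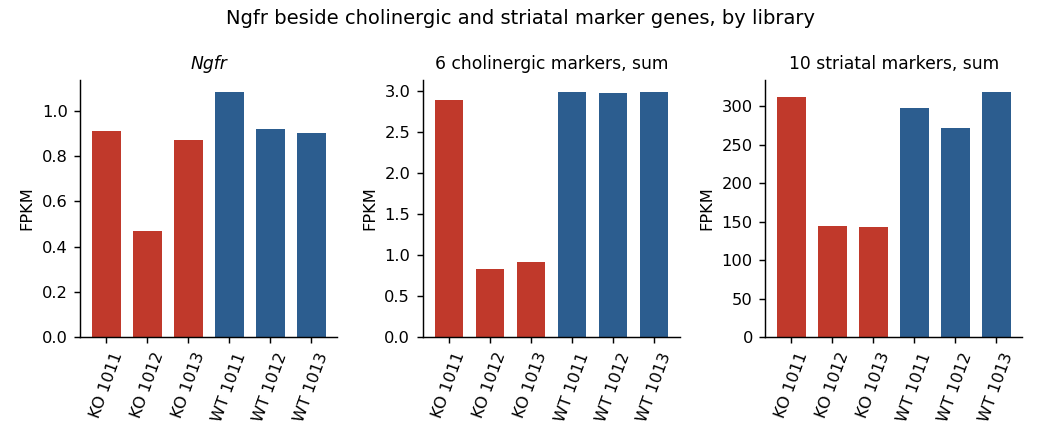
FPKM of *Ngfr* and summed FPKM of 6 cholinergic markers and of 10 striatal markers in each library, KO (red) left of WT (blue). KO1012 and KO1013 are low for both marker sums, and *Ngfr* is low in KO1012 (0.470 FPKM).

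**Figure D4:**
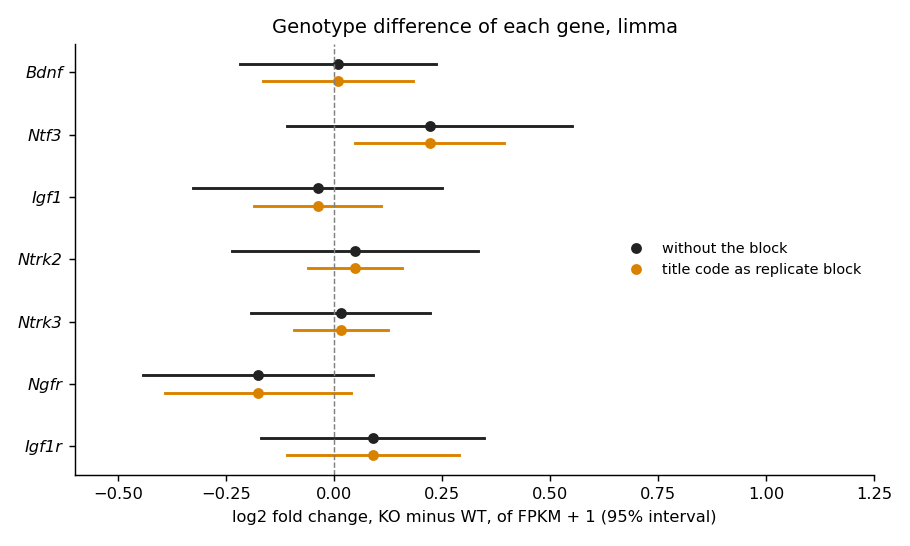
Log2 fold change of each gene, KO minus WT, on log2(FPKM + 1) with its 95% interval by limma, without the block (black) and with the title code as replicate block (orange). All intervals without the block include 0, and with the block that of *Ntf3*, 0.05 to 0.39, does not. *Ngfr* comes from the fit without a filter.

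The title code took a larger share of the variation than genotype in each of the 7 genes. Of the sum of squares on log2(FPKM + 1), code took 95.6% for *Ntrk3*, 95.1% for *Igf1*, 91.9% for *Ntrk2* and 64.6% for *Ntf3*, against 0.683%, 1.89%, 2.56% and 30.3% for genotype. For *Bdnf*, *Ngfr* and *Igf1r* code took 45.4%, 44.0% and 44.5%, and genotype 0.165%, 32.4% and 12.3%. The medians over all tested genes were 77.3% for code and 3.67% for genotype. Code has 2 degrees of freedom of the 5 and genotype has 1. The labels do not say what a code stands for.

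A limma F-test of the code beside genotype, chosen after seeing the data, called 3 of the 6 tested genes, where 30.6% of all 12863 tested genes were called. The called genes were *Ntrk2* (adjusted p = 0.0130), *Igf1* (0.0357) and *Ntf3* (0.0362). *Ntrk3* (0.0567), *Igf1r* (0.294) and *Bdnf* (0.341) did not pass. Mean levels of *Ntrk2* over the pairs of KO1011, KO1012 and KO1013 with their WT libraries were 52.1, 40.6 and 46.3 FPKM, those of *Igf1* 3.4025, 2.54 and 3.25 FPKM, and those of *Ntf3* 1.44, 2.09 and 2.11 FPKM. The KO1011 and WT1011 pair was thus highest for *Ntrk2* and *Igf1* and lowest for *Ntf3*. In the fit without a filter, where 6.81% of genes were called, 0 of the 7 genes passed. In that fit 4 of the 7 had an unadjusted p under 0.05, as did 31.6% of all genes, and the limma adjusted p ran from 0.05001 for *Ntrk2* upwards. With each library left out in turn, *Ntrk2* passed in 6 of 6 fits, *Ntf3* in 3 and *Igf1* in 1, and without KO1013 or WT1013 *Ntrk2* alone was called. The share called over all genes in these fits was lowest without KO1013 (16.1%) and without WT1013 (15.8%), and it was 30.5% without KO1011, 28.3% without KO1012, 26.2% without WT1011 and 21.6% without WT1012. With a filter at a mean of 0.1 FPKM, where 20.7% of genes were called, *Ntrk2* and *Ntf3* were the called genes. With voom on recovered reads, where 35.2% of all genes were called, the called genes were *Ntrk2*, *Igf1* and *Ntrk3*, and *Ntf3* was at an adjusted p of 0.0738.

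**Figure D5:**
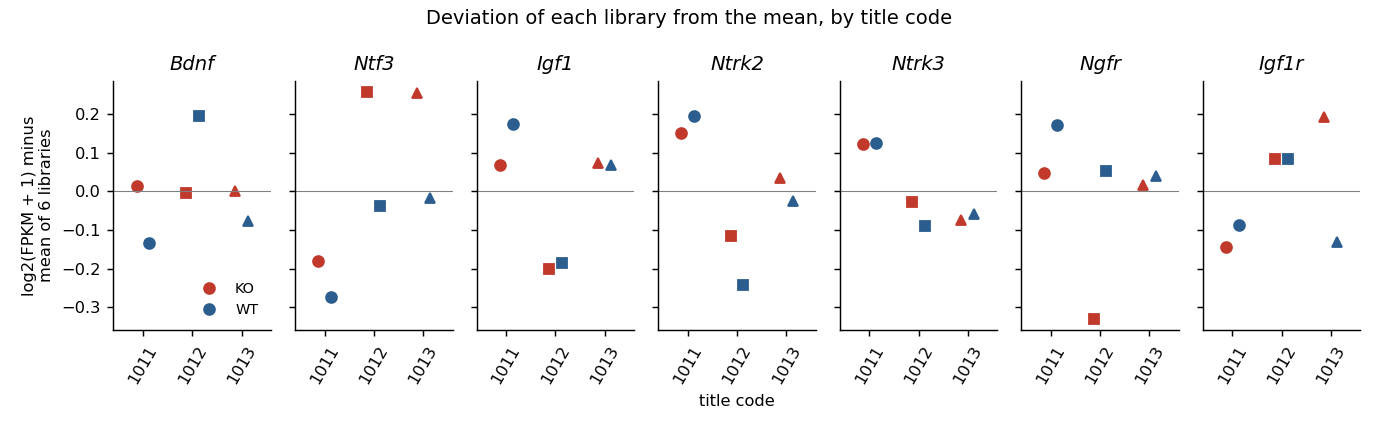
Deviation of log2(FPKM + 1) from the mean of the 6 libraries for each gene, by title code, with KO (red) left of WT (blue). KO and WT libraries of the same code lie close together for *Igf1*, *Ntrk2* and *Ntrk3*. The widest gaps within a code are those of *Ngfr* in KO1012, *Igf1r* in KO1013 and *Ntf3* in KO1012 and KO1013.

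The genes most like each of the 7 across libraries were looked up among genes with a mean of at least 5 FPKM, by Pearson's r on log2(FPKM + 1) over 6 libraries. With 6 libraries that share title codes, high values are common: 601 genes had r over 0.9 with *Ntrk2* and 17 with *Ngfr*. The closest pair for *Bdnf* was *Ubb*, a polyubiquitin gene, and *Mcl1*, a survival factor gene of the BCL2 family, both with r = 0.987. For *Ntf3* they were *Pknox2*, a homeobox gene (0.981), and *Vim*, the vimentin gene (0.980), and for *Igf1* they were *Dzip1* (0.994) and *Uck2* (0.992). *Ntrk2* was closest to *Evi5l* (0.998) and *S100pbp* (0.998), *Ntrk3* to *Scaf11* (0.998) and *Ttll5* (0.995), *Ngfr* to *Akirin1* (0.964) and *Zfp263* (0.960), and *Igf1r* to the sugar transporter gene *Slc2a8* (0.995) and the neuronal transcription factor gene *Neurod2* (0.992).

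The wider pathway did not pass either. Of 127 listed genes of neurotrophin and IGF signalling in 8 lists, 112 were tested and 0 were called, where 0.00777% of all tested genes were called, and 0 had a limma unadjusted p under 0.05, where 0.63% of all tested genes did. The median log2 fold change was 0.01, as it was over all tested genes (0.01), with 63 genes higher and 49 lower. Over all tested genes 53.8% were higher, the share to set beside the counts of each list below. The values ran from -0.14 to 0.27. With the replicate block 0 were called too, but some had a limma unadjusted p under 0.05 in that fit, where 3.91% of tested genes did. Among the genes named below these were *Dusp6* (limma unadjusted p = 0.0133), *Igf2* (0.0144), *Spry2* (0.0160) and *Igfbp5* (0.0206).

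Other neurotrophins and their receptors were close between genotypes, with 3 of 6 tested genes higher and 3 lower. *Sort1*, whose product sortilin is a proneurotrophin co-receptor of p75, averaged 70.8 ± 3.35 FPKM in KO and 67.9 ± 6.21 FPKM in WT (SD, n = 3 each), and its relative *Sorcs1* had a log2 fold change of -0.08. *Ntf5*, the neurotrophin-4 gene, was below the filter at 0.062 ± 0.016 FPKM in KO and 0.060 ± 0.032 FPKM in WT.

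Genes that sort and cleave proneurotrophins were higher in 7 of 8 tested cases, where 53.8% of all tested genes were, and called in 0. Their median log2 fold change was 0.05. *Pcsk5* and *Furin*, both proprotein convertase genes, measured 3.99 ± 0.177 and 9.44 ± 0.291 FPKM in KO, against 3.66 ± 0.107 and 9.02 ± 0.1005 FPKM in WT (SD, n = 3 each), with log2 fold changes of 0.10 and 0.06. *Pcsk6* was at 0.07. The protease genes *Mmp3* and *Mmp7* were listed at 0 in all 6 libraries.

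In the IGF system, 8 of 10 tested genes were higher and 0 were called, with a median of 0.06. *Igf2*, the second IGF ligand gene, measured 35.6, 47.4 and 49.5 FPKM in KO1011, KO1012 and KO1013, against 35.7, 37.1 and 35.7 FPKM in WT1011, WT1012 and WT1013. KO1012 and KO1013 lay above the WT values and KO1011 marginally below the lowest of them. Its log2 fold change was 0.27 (SE 0.12, 95% interval -0.02 to 0.55, limma adjusted p = 0.9999). *Igf2* is a gene of meningeal fibroblasts, and the summed level of 8 other meningeal markers was 56.6, 69.6 and 65.1 FPKM in KO1011, KO1012 and KO1013, against 54.7, 54.4 and 49.4 FPKM in WT1011, WT1012 and WT1013, with 7 of the 8 higher. *Igf2* is also a choroid plexus gene, and 5 choroid plexus markers summed to 4.52, 313 and 6.49 FPKM in KO1011, KO1012 and KO1013, against 4.17, 5.76 and 152 FPKM in WT1011, WT1012 and WT1013. *Ttr* alone made up nearly all of the 2 high sums, at 310 FPKM in KO1012 and 150 FPKM in WT1013. Each of the other choroid plexus markers was at most 1.05 FPKM in any library. WT1013, high for *Ttr*, was not high for *Igf2*, and the part of either tissue in the *Igf2* values was not tested. *Igfbp5*, an IGF binding protein gene, averaged 34.8 ± 3.04 FPKM in KO and 31.8 ± 2.06 FPKM in WT (log2 fold change 0.13), and *Stc1*, which encodes an inhibitor of the protease that frees IGFs from binding proteins, 1.90 ± 0.058 FPKM in KO and 2.19 ± 0.222 FPKM in WT (SD, n = 3 each, log2 fold change -0.13).

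Signal carriers downstream of the receptors were near 0 on the log2 fold change scale. Of 20 adaptor and substrate genes 8 were higher and 12 lower (median 0.00), with *Irs1* at 0.12, *Sh2b2* at -0.09 and *Shc1* at 0.08. Of 24 kinase cascade genes 17 were higher and 7 lower (median 0.02), with *Creb1* at 0.10, *Akt1* at 0.04 and *Hras* at -0.05. Feedback inhibitors of receptor tyrosine kinases, only some of which are known as genes induced by ERK signalling, were lower in 9 of 13 cases (median -0.03). *Spry2* measured 23.5, 20.9 and 20.5 FPKM in KO1011, KO1012 and KO1013, against 24.7, 23.8 and 23.2 FPKM in WT1011, WT1012 and WT1013 (log2 fold change -0.14). *Dusp6*, an ERK phosphatase gene, stood at -0.13 and *Dusp5* at 0.11, and none passed.

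The activity-induced genes had 10 of 22 tested members higher and 12 lower (median -0.01), with *Scg2*, *Nptx2* and *Egr3* at -0.08, -0.13 and -0.13. Their medians within the pairs of KO1011, KO1012 and KO1013 were 0.01, -0.17 and 0.23, so the direction differed between pairs. Of 11 tested factors reported to act on *Bdnf* transcription, 7 were higher and 4 lower (median 0.01), including *Crtc1*, a CREB coactivator gene, at 0.06 and *Usf1* at 0.06.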

How the data were processed

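Messenger RNA libraries from 3 KO and 3 WT samples were analysed. The authors deposited 1 table of FPKM values, made per the file headers with HOMER's analyzeRepeats.pl on mm10 over exons, with transcripts condensed to 1 row per gene. Its exon length column was used to recover reads. The tools were FastQC, STAR 2.4.0k and HOMER 4.8.3, per the submitters' processing notes. Of 12 libraries in the header's command, the 6 with a column were analysed and the remainder were not analysed here. The sources used here do not give how the model of a condensed gene was chosen.

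Library totals were recovered from the steps of the FPKM values (100% of values checked under 200 reads were whole within 0.1 read), and counts of reads are estimates from them. Poisson intervals cover counting error only. The genotype test was limma 3.58.1 under R 4.3.3 (2-sided, trended prior, values as log2(FPKM + 1)), run over 12863 genes whose mean reached 1 FPKM. Calls were made where p, adjusted after Benjamini and Hochberg, was under 0.05. The method was also run on simulated libraries, drawn independently and without title codes, with means and variances taken from these data. Libraries with the same title code deviated together (correlations of deviations from the group means 0.712, 0.670 and 0.432 for the pairs of KO1011, KO1012 and KO1013), so the code was used as a replicate block in an alternative. The pairing comes from the titles. Tables and plots were made with matplotlib 3.10.9, scipy 1.17.1 and pandas 2.3.3 on Python 3.11.15. Transcript models come from GENCODE M21 and promoter windows from RefSeq, both GRCm38. The exons of the paired GENCODE transcript sum to less than the row's exon length for *Igf1*, *Ntrk2*, *Igf1r* and *Bdnf*, by the most for the first 2 named, so coverage was compared on coding bases.

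The genes, the lists and the tests were chosen with earlier results of these data known. Named besides the 7 genes are *Chrdl1*, up to 3 genes per pathway list by smallest unadjusted p, and 2 genes most like each of the 7 (ribosomal protein, small RNA and Gm or Rik genes left out), and a gene that this rule names is not reported here. *Tshz2*, *Ntf5*, *Mmp3*, *Mmp7*, *Lhx8*, *Gbx1* and *Ttr* were named after their values were seen.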

Additional observations from a re-analysis of the deposited data

How the results depend on the processing

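None of the 7 genes was called between genotypes under any of the 15 alternatives, and the lowest limma adjusted p was 0.990. Of 105 recomputed log2 fold changes 95 kept their direction. The 10 that turned belong to 4 genes. With voom on recovered reads and replicate block *Bdnf* was at -0.0095. With a library left out, the log2 fold change of *Bdnf* ranged from -0.056 (without WT1011) to 0.11. For *Igf1* it ranged from -0.14 to 0.051 (without KO1012). For *Ntrk2* it ranged from -0.062 (without WT1012) to 0.16. For *Ntrk3* it ranged from -0.043 (without KO1011) to 0.081. *Ntf3*, *Ngfr* and *Igf1r* kept their direction throughout. With voom on recovered reads *Ntf3* was at 0.34, and *Ngfr* at -0.45. The title code as replicate block left the log2 fold changes as they were and changed no call of the 7 genes.

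Over all genes 1 was called, and 2 with a pseudocount of 0.1, 6 without a filter, 2 with voom and the replicate block, and 1 to 4 with a library left out (4 without KO1011, 2 without WT1011). Of 6 tested genes, 3 differed between title codes (30.6% of all genes). Of 7 tested, 0 did without a filter (6.81% of all) and 2 with a filter at 0.1 FPKM (20.7%). With a library left out it was 1 to 2 of 6 (15.8% to 30.5%). The cause was not tested. Of 42 recomputed differences within a pair, 3 moved by more than their spread, all with a pseudocount of 0.1 (*Ntf3* in the KO1012 and KO1013 pairs, *Ngfr* in the KO1012 pair). Depth limits *Ntf3* and *Ngfr*, with at most 103 and 117 reads per library.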
